A study of Mus musculus with 12 samples.

Results

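The 10 genes described here encode signals of the fibroblast growth factor (FGF) and hepatocyte growth factor (HGF) families: the FGF ligands Fgf2, Fgf7, Fgf9, Fgf10 and Fgf18, the FGF receptors Fgfr1, Fgfr2 and Fgfr3, the ligand Hgf and its receptor Met. They were chosen by gene symbol from the 23329 genes listed. mRNAseq was made of primary stromal cells from the small intestine of mice on the C57BL6/J background, taken from E14.5 embryos or from adults, whose age is not given in the sources used here. Cells at passages 2 to 3 were exposed for 6 h to Escherichia coli LPS, which the labels give as 10 µg/µl, or to PBS. Each of the 4 groups had 3 libraries (embryonic PBS, embryonic LPS, adult PBS and adult LPS). All cultures grew in medium with Y27632. Embryonic cultures pooled several embryos and adult cultures came from separate mice. The cells were plated without a sort after the epithelium had been taken off, so each library is a mixture of the stromal cells that grew, which the labels call intestinal myofibroblasts.

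FGFs are secreted ligands that bind receptor tyrosine kinases together with heparan sulfate. In the gut, Fgf7 and Fgf10 are made by the mesenchyme and act on the epithelium through the b splice form of Fgfr2, while Fgf9 and Fgf18 act mainly back on mesenchymal cells through the c splice forms of the receptors. Fgf2 is a broad fibroblast mitogen. Hgf is made by mesenchymal cells as an inactive precursor, is cut by extracellular proteases, and acts on cells that carry Met. In bulk RNA, fewer cells of a type and less RNA per cell cannot be told apart, and splice forms were not counted.

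Levels are given as CPM (gene counts scaled to library size after TMM normalization). All 10 genes were among the 13038 with a CPM above 0.5 in all libraries of at least 1 group; Fgf7 was under that level in embryonic PBS libraries and passed through the other groups, and Hgf passed through the adult groups. Gene counts per library ranged from 18850224 to 32672370, so that 3 counts were worth between 0.0897 and 0.145 CPM, a floor that covers counting error only. The labels of treatment were checked with 6 genes known to rise with LPS, whose summed level was 28.4 to 124 CPM in PBS and 2111 to 8325 CPM in LPS libraries. Fibroblast and contractile markers were abundant in every library, but Pdgfra, which marks gut fibroblasts, was 2.24 to 5.84 CPM in embryonic and 28.5 to 121 CPM in adult libraries. Of the 8 epithelial markers, Cdx2 had no count in any library and the others except Krt20 stayed at or under 1.11 CPM. Krt20 was at 21.5 to 59.1 CPM in embryonic and 7.04 to 13.3 CPM in adult libraries. Within a stage, an LPS and a PBS library with the same number deviated together from their group means, and such a pair is called a culture here. The embryonic and adult cultures numbered 2 each stood apart from the other cultures of their stage in several of these genes, and values with and without them are given with the results.

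**Figure D1:**
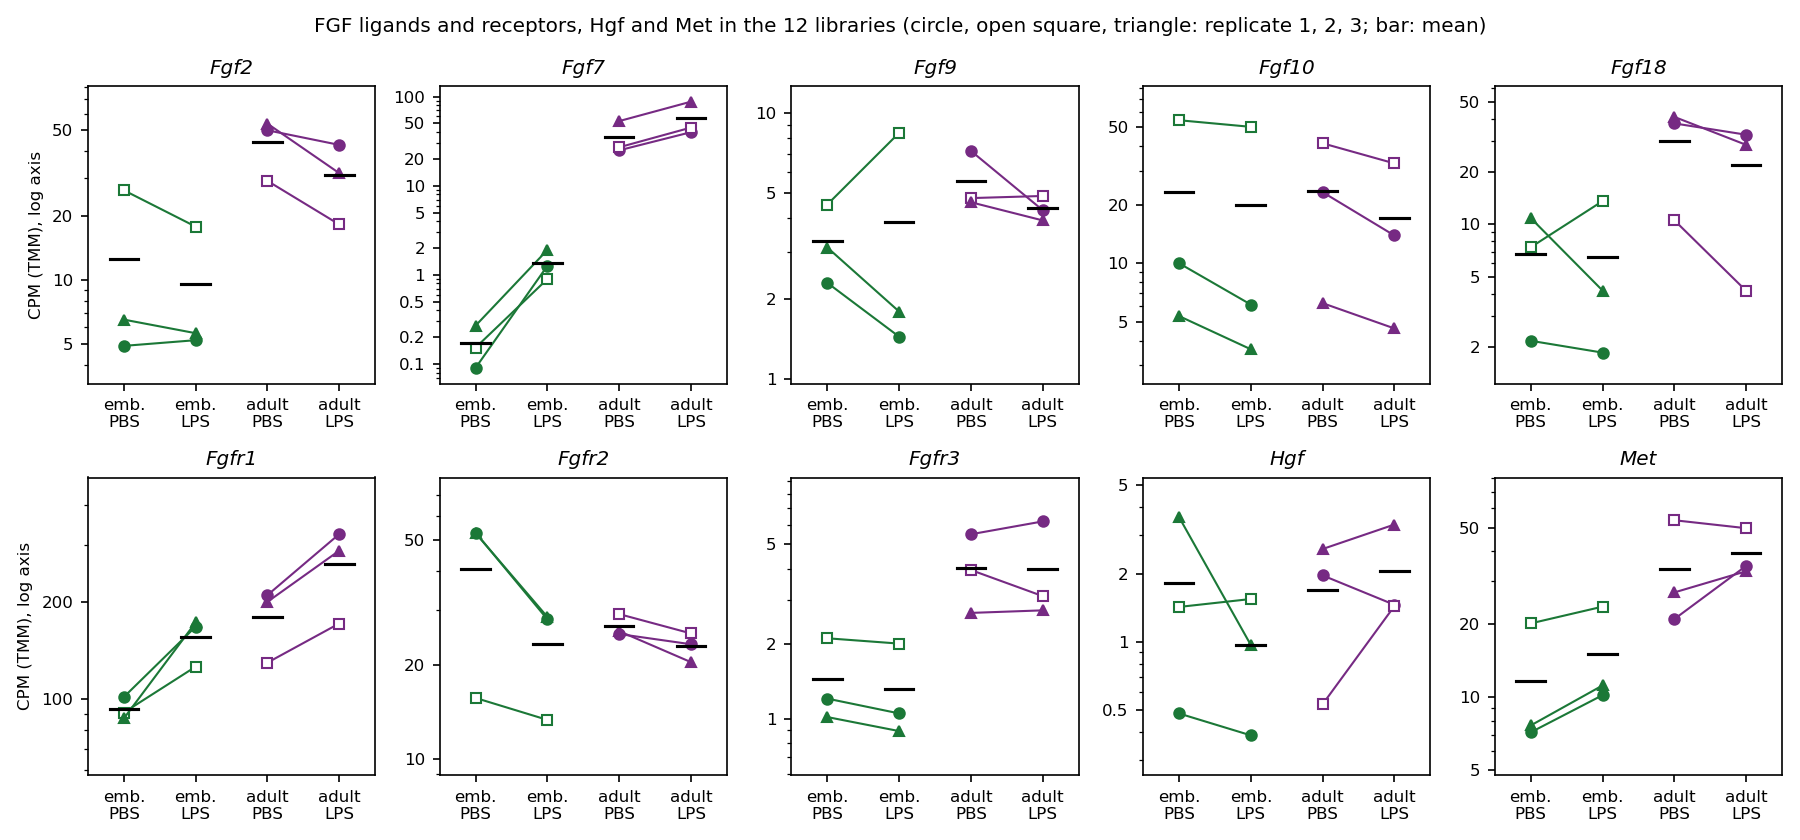
Level of each gene in CPM (log axis, a scale of its own in each panel) in the 4 groups, with 1 point per library, lines joining the LPS and PBS libraries of the same replicate number, and bars at the group means. Fgf7 lies between 0.0904 and 1.90 CPM in embryonic and between 25.0 and 87.8 CPM in adult libraries and rises along all 6 lines, while for Fgf10 the 6 lines fall and the cultures lie far apart.

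Between the stages, Fgf7 was the 1 gene of the 10 called at an adjusted p under 0.05, in PBS and again in LPS libraries (edgeR's quasi-likelihood test, Benjamini-Hochberg adjustment over all 13038 genes). Of all tested genes, 4.08% were called between the stages in PBS and 5.31% in LPS libraries. In PBS libraries 6 of the 10 genes had an unadjusted p under 0.05 (Fgf2, Fgf7, Fgf18, Fgfr1, Fgfr3 and Met), all higher in adult stroma, and in LPS libraries 5 did (Fgf2, Fgf7, Fgfr1, Fgfr3 and Met), against 19.8% and 22.0% of all tested genes. DESeq2 called 5 in PBS libraries (Fgf2, Fgf7, Fgfr1, Fgfr3 and Met) and 3 in LPS libraries (Fgf7, Fgfr3 and Met), where it called 11.9% and 13.1% of all tested genes. Without embryonic culture 2, edgeR called 5 of the 10 in PBS (Fgf2, Fgf7, Fgfr2, Fgfr3 and Met) and 5 in LPS libraries (Fgf2, Fgf7, Fgf9, Fgfr3 and Met), and the share of all tested genes rose as well, to 9.75% and 10.4%. The median log2 fold change of the 10 genes, embryonic against adult, was −1.22 in PBS and −1.24 in LPS libraries, against 0.018 and 0.019 over all tested genes. LPS changed 1 of the 10 genes in embryonic stroma, Fgf7, where 2.75% of all tested genes were called, and 0 in adult stroma, where 0.606% were called, 0 of the 10 had an unadjusted p under 0.05 and DESeq2 also called 0 of them (2.25% of all tested genes). In adult stroma 5.58% of all tested genes had an unadjusted p under 0.05 with edgeR. With the culture added to the model as a replicate block, LPS changed 3 in embryonic stroma (Fgf7, Fgfr1 and Fgfr2, against 12.5% of all tested genes) and 2 in adult stroma (Fgf7 and Fgfr1, against 6.2%). The interaction of stage with LPS, which asks whether the LPS responses of the stages differ, called 0 of the 10 genes and 0.0% of all tested genes without the block (1 of the 10, Fgf7, had an unadjusted p under 0.05, against 2.25% of all tested genes, and DESeq2 called 0, against 0.192% of all tested genes), and 1 of the 10, Fgf7, with it, against 0.844% of all tested genes.

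**Figure D2:**
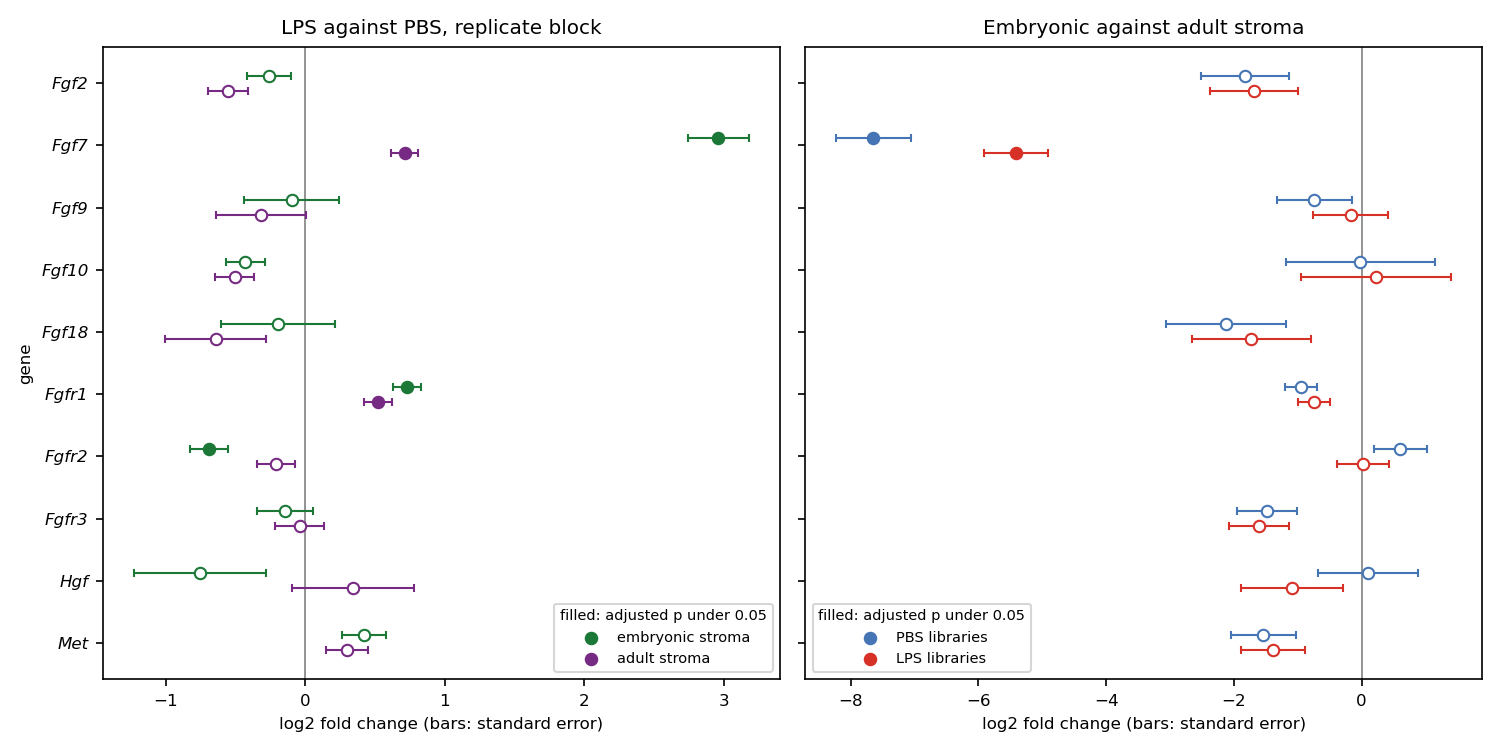
Log2 fold changes of the 10 genes with their standard errors, on the left for LPS against PBS in each stage with the replicate block, on the right for embryonic against adult stroma without it; filled points have an adjusted p under 0.05. Fgf7 lies farthest from 0 in embryonic LPS against PBS (2.96) and in both comparisons of the stages (−7.65 and −5.41), and 8 of the 10 points lie below 0 in each comparison of the stages.

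Fgf7, also called keratinocyte growth factor, is a mesenchymal ligand for epithelial Fgfr2. Its gene spans positions 126034658 to 126091185 of chromosome 2, on the plus strand (positions here are of RefSeq on GRCm38.p6). Embryonic PBS libraries held 3, 5 and 9 counts of Fgf7, which is 0.0904, 0.152 and 0.269 CPM. Embryonic LPS libraries held 36, 26 and 49 counts, which is 1.26, 0.898 and 1.90 CPM. Adult PBS libraries were at 25.0, 27.0 and 53.2 CPM and adult LPS libraries at 39.9, 45.0 and 87.8 CPM. The 4 groups did not overlap except for adult PBS and adult LPS, where culture 3 with PBS was above cultures 1 and 2 with LPS. Embryonic against adult stroma, the log2 fold change was −7.65 with PBS (standard error 0.58, adjusted p = 0.000268, edgeR) and −5.41 with LPS (standard error 0.50, adjusted p = 0.0011). The mean CPM was 205 times higher in adult than in embryonic stroma with PBS (ratio of summed counts per total 212, exact 95% interval 132 to 364, counting error only) and 42.5 times higher with LPS. Fgf7 was called between the stages without any 1 library or culture as well.

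Fgf7 was higher with LPS in every culture of both stages. The LPS to PBS ratio was 14.0, 5.89 and 7.07 in embryonic cultures 1, 2 and 3, the first of which rests on 3 counts with PBS. It was 1.60, 1.66 and 1.65 in the adult cultures. Embryonic stroma had a log2 fold change of 2.95 without the block (standard error 0.56, adjusted p = 0.0203, edgeR) and of 2.96 with it (standard error 0.22, adjusted p = 9.26e-05). Without the block the call was lost when embryonic PBS replicate 1, embryonic PBS replicate 2 or embryonic LPS replicate 3 was left out, with log2 fold changes of 2.63 (adjusted p = 0.115), 2.88 (adjusted p = 0.0752) and 2.60 (adjusted p = 0.0897). It was also lost without embryonic culture 1, 2 or 3 (2.70, 3.10 and 3.08, adjusted p = 0.131, 0.0840 and 0.109) and with the 6 embryonic libraries alone (2.94, adjusted p = 0.133), while with the block it was kept when any 1 culture was left out. The fit of the 6 embryonic libraries alone, without the block, called 0.0317% of all genes tested there. Adult stroma had a log2 fold change of 0.71 with the block (standard error 0.10, adjusted p = 0.0044, edgeR) and of 0.71 without it (standard error 0.41, adjusted p = 1.0). The adult call with the block was lost without adult culture 1 (0.73, adjusted p = 0.0518) and without adult culture 3 (0.69, adjusted p = 0.117). The rise was larger in embryonic stroma by 2.25 on the log2 scale (standard error 0.25, adjusted p = 0.00749, edgeR) with the block and by 2.23 (standard error 0.69, unadjusted p = 0.00878, adjusted p = 1.0) without it. This difference with the block remained between 1.99 and 2.41 when a culture was left out, and was not called without adult culture 3 (2.25, adjusted p = 0.0616). Even with LPS, the highest embryonic library held 1.90 CPM and the lowest adult PBS library 25.0 CPM.

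The 300 bases from 250 before to 50 after the annotated start are shown for Fgf7 and Fgf10, the mesenchymal ligands of the same receptor (RefSeq, GRCm38.p6). They were chosen because, in the fits of all 12 libraries, only Fgf7 was called between the stages and with LPS. Bases in capitals match a motif below. The Fgf7 window is chr2:126034408-126034707 on the plus strand and the Fgf10 window chr13:118714449-118714748 on the plus strand.
Fgf7: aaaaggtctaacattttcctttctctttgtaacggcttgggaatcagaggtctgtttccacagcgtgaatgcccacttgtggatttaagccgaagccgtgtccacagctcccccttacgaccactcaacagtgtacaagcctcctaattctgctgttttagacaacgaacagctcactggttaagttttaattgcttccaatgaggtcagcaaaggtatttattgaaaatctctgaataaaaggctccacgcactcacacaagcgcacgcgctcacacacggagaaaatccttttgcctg
Fgf10: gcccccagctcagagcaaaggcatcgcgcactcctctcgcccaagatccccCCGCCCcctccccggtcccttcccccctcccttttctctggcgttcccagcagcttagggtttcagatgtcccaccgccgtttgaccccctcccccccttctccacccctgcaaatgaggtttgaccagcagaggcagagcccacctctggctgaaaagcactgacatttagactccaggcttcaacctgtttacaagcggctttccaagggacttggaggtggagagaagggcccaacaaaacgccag
Windows were found for 9 of the 10 genes (11 windows; Fgfr1 had none). They were searched on both strands for the NF-kB motif, the interferon-stimulated response element, TGACGTCA (CRE), TGANTCA (AP-1), TTCNNNGAA (GAS), TATAAA and GGGCGG (GC box), which occur in 8.46%, 3.44%, 1.79%, 7.81%, 8.30%, 13.6% and 35.7% of 32851 such windows, in this order; no motif was kept from overlapping another. The Fgf7 window, with 45.7% G and C, held none of these letters, and the Fgf10 window, with 60.7%, held a GC box that starts at −199. Of the other 9 windows, 1 of Fgf18 and 1 of Fgfr3 held an NF-kB motif and that of Met an AP-1 motif at −54. A match is a description of the sequence, and no match says only that these letters are not in this window.

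Fgf10 is needed for the growth of several gut regions in the embryo. It lies on chromosome 13 from 118714699 to 118792573, on the plus strand. Embryonic PBS libraries were at 10.0, 54.5 and 5.35 CPM and embryonic LPS libraries at 6.13, 50.4 and 3.61 CPM. Adult PBS libraries were at 23.2, 41.4 and 6.24 CPM and adult LPS libraries at 13.9, 32.7 and 4.62 CPM. Culture 2 was the highest and culture 3 the lowest in both stages and treatments, and the stages overlapped over nearly their whole range. The log2 fold change between the stages was −0.02 in PBS libraries (standard error 1.17, adjusted p = 0.996) and 0.23 in LPS libraries (standard error 1.17, adjusted p = 0.940), so a difference smaller than the spread between cultures could not be seen. Fgf10 was lower with LPS in 6 of 6 cultures, with ratios between 0.599 and 0.925. With the block this came to −0.43 on the log2 scale in embryonic stroma (standard error 0.14, adjusted p = 0.0903, edgeR) and to −0.51 in adult stroma (standard error 0.14, adjusted p = 0.0815), neither of them called. Fgf10 was called when embryonic culture 2 was left out of that fit, in embryonic (−0.64, adjusted p = 0.0281) and adult stroma (−0.51, adjusted p = 0.0348), in adult stroma without embryonic culture 3 (−0.51, adjusted p = 0.0462), and in the 6 adult libraries alone with the block (−0.51, adjusted p = 0.0161).

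Fgf2, a mitogen of fibroblasts and endothelial cells on chromosome 3 from 37348477 to 37410106, was at 4.91, 26.3 and 6.52 CPM in embryonic PBS and 5.22, 17.8 and 5.63 CPM in embryonic LPS libraries. It was at 50.1, 29.1 and 53.8 CPM in adult PBS and 42.8, 18.2 and 31.6 CPM in adult LPS libraries. The stages did not overlap within a treatment, but embryonic culture 2 came close to adult culture 2. Between the stages its log2 fold change was −1.82 with PBS (standard error 0.69, adjusted p = 0.173) and −1.69 with LPS (standard error 0.69, adjusted p = 0.183). Without embryonic culture 2 it was −2.96 (adjusted p = 0.00589, edgeR) and −2.51 (adjusted p = 0.011), both called. With LPS, Fgf2 was lower in 5 of 6 cultures; with the block the log2 fold change was −0.55 in adult (standard error 0.14, adjusted p = 0.0694) and −0.26 in embryonic stroma (standard error 0.16, adjusted p = 0.344). The adult difference was called with the block when embryonic culture 2 was left out (adjusted p = 0.0363) and in the 6 adult libraries alone (adjusted p = 0.0165).

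Fgf9, on chromosome 14 from 58070671 to 58112854, signals from epithelium and mesothelium to the mesenchyme in the embryonic gut. It was low, at 2.29, 4.51 and 3.11 CPM in embryonic PBS and 1.44, 8.39 and 1.79 CPM in embryonic LPS libraries. Adult libraries were at 7.18, 4.77 and 4.60 CPM with PBS and 4.30, 4.86 and 3.93 CPM with LPS. The stages overlapped, and embryonic culture 2 was again the highest of its stage and went up with LPS while embryonic cultures 1 and 3 went down. Embryonic against adult stroma, its log2 fold change was −0.74 with PBS (standard error 0.59, adjusted p = 0.565) and −0.17 with LPS (standard error 0.58, adjusted p = 0.906), and it was called with LPS without embryonic culture 2 (−1.44, adjusted p = 0.0216, edgeR) or its LPS library alone (−1.44, adjusted p = 0.0464).

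Fgf18, known for its part in skeletal and lung development, on chromosome 11 from 33116970 to 33147400 on the minus strand, was at 2.17, 7.41 and 10.9 CPM in embryonic PBS and 1.86, 13.6 and 4.19 CPM in embryonic LPS libraries. It was at 37.6, 10.6 and 41.0 CPM in adult PBS and 32.4, 4.18 and 28.4 CPM in adult LPS libraries. Adult cultures 1 and 3 were above every embryonic library, while adult culture 2 lay within the embryonic range. The stages differed by a log2 fold change of −2.13 with PBS (standard error 0.94, adjusted p = 0.241) and −1.72 with LPS (standard error 0.93, adjusted p = 0.315), and LPS did not give a call in either stage.

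Fgfr1, a main FGF receptor of mesenchymal cells, lies on chromosome 8 from 25518759 to 25575718. It was at 101, 90.7 and 87.0 CPM in embryonic PBS and 168, 126 and 173 CPM in embryonic LPS libraries. Adult libraries were at 210, 130 and 200 CPM with PBS and 325, 172 and 289 CPM with LPS. Fgfr1 was higher with LPS in 6 of 6 cultures, by 1.39 to 1.99 times in embryonic and 1.32 to 1.55 times in adult stroma. With the block it rose by 0.73 on the log2 scale in embryonic stroma (standard error 0.10, adjusted p = 0.00268, edgeR) and by 0.52 in adult stroma (standard error 0.10, adjusted p = 0.0223), which differ by 0.21 (standard error 0.14, adjusted p = 0.749). Without the block neither was called (adjusted p = 0.222 and 0.922). The embryonic call with the block was kept without any culture, and the adult one was lost without adult culture 1, 2 or 3 (0.47, 0.57 and 0.50, adjusted p = 0.179, 0.0935 and 0.223). All adult PBS libraries were above the embryonic PBS libraries, and with LPS the ranges met, with a log2 fold change between the stages of −0.95 with PBS (standard error 0.25, adjusted p = 0.0637) and −0.75 with LPS (standard error 0.25, adjusted p = 0.112). Without adult culture 2, the lowest adult culture, these were −1.14 (adjusted p = 0.0144, edgeR) and −0.99 (adjusted p = 0.027). Without adult LPS replicate 2 alone the PBS difference was also called (adjusted p = 0.0351).

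Fgfr2, whose b form receives Fgf7 and Fgf10 in epithelium, lies on chromosome 7 from 130162451 to 130266808 on the minus strand. It went the other way from Fgfr1 with LPS. Embryonic libraries were at 53.0, 15.7 and 52.8 CPM with PBS and between 13.4 and 28.5 CPM with LPS, with culture 2 the lowest. Adult libraries lay within a narrow range of 25.1 to 29.1 CPM with PBS and 20.4 to 25.2 CPM with LPS. Fgfr2 was lower with LPS in 6 of 6 cultures, with ratios of 0.529, 0.851 and 0.540 in embryonic and 0.796 to 0.928 in adult cultures. With the block it fell in embryonic stroma (log2 fold change −0.69, standard error 0.14, adjusted p = 0.0148, edgeR), a call lost without embryonic culture 1 (−0.57, adjusted p = 0.0804) and in the 6 embryonic libraries alone with the block (−0.71, adjusted p = 0.0640). Without the block it was called only when embryonic culture 2 was left out (−0.90, adjusted p = 0.0175, against 0.587 with all libraries). In adult stroma it came to −0.21 on the log2 scale (standard error 0.14, adjusted p = 0.503) and the interaction to −0.48 (standard error 0.19, unadjusted p = 0.038, adjusted p = 0.508). Embryonic culture 2 was below every adult library and embryonic cultures 1 and 3 with PBS above every adult library, so the log2 fold change between the stages in PBS libraries moved from 0.60 (standard error 0.41, adjusted p = 0.480) to 0.98 (adjusted p = 0.00257, edgeR) without embryonic culture 2. In LPS libraries it was 0.02 (standard error 0.41, adjusted p = 0.988).

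Fgfr3, known as a brake on cartilage growth, on chromosome 5 from 33721724 to 33737068, was low in both stages. Embryonic libraries held 1.21, 2.10 and 1.02 CPM with PBS and 1.05, 2.00 and 0.893 CPM with LPS, and adult libraries 5.50, 3.95 and 2.66 CPM with PBS and 6.19, 3.11 and 2.72 CPM with LPS. All adult libraries were above all embryonic ones. The log2 fold change between the stages was −1.48 with PBS (standard error 0.47, adjusted p = 0.104) and −1.60 with LPS (standard error 0.47, adjusted p = 0.0767), and −1.86 (adjusted p = 0.0412, edgeR) and −2.04 (adjusted p = 0.0313) without embryonic culture 2. LPS ratios of Fgfr3 lay between 0.786 and 1.13 in the 6 cultures.

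Hgf, on chromosome 5 from 16553495 to 16619439, was near the lower end of what these libraries measure. It was at 0.482, 1.43 and 3.59 CPM in embryonic PBS and 0.386, 1.55 and 0.971 CPM in embryonic LPS libraries. It was at 1.98, 0.530 and 2.59 CPM in adult PBS and 1.47, 1.45 and 3.33 CPM in adult LPS libraries. The groups overlapped throughout, and the 6 LPS ratios went from 0.271 to 2.73 with 3 above 1. Between the stages its log2 fold change was 0.10 with PBS (standard error 0.78, adjusted p = 0.966) and −1.09 with LPS (standard error 0.79, adjusted p = 0.483).

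Met, the receptor of Hgf, lies on chromosome 6 from 17463349 to 17573980. Per length it was above its ligand (1.52 against 0.255 CPM per kb of exon in embryonic PBS stroma). Met was at 7.17, 20.2 and 7.65 CPM in embryonic PBS and 10.2, 23.6 and 11.2 CPM in embryonic LPS libraries. Adult libraries were at 21.0, 53.6 and 27.0 CPM with PBS and 34.8, 49.7 and 33.1 CPM with LPS. Culture 2 was the highest in both stages, and within a treatment the stages did not overlap. Embryonic against adult stroma, its log2 fold change was −1.54 with PBS (standard error 0.51, adjusted p = 0.115) and −1.39 with LPS (standard error 0.50, adjusted p = 0.140), and −2.20 (adjusted p = 0.0153, edgeR) and −1.88 (adjusted p = 0.0239) without embryonic culture 2. Without embryonic PBS replicate 2 alone, Met (adjusted p = 0.0415) and Fgf2 (adjusted p = 0.0352) were also called in PBS libraries. Met was higher with LPS in 5 of 6 cultures, with ratios from 0.927 to 1.66, and with the block it came to 0.42 on the log2 scale in embryonic (standard error 0.16, adjusted p = 0.137) and 0.30 in adult stroma (standard error 0.15, adjusted p = 0.371).

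Levels of different genes were compared only as CPM per kb of exon, with gene lengths from the GENCODE M21 annotation. In embryonic PBS stroma, Fgfr1 was first with 9.42 CPM per kb, followed by Fgf18 (5.74), Fgf10 (5.06) and Fgfr2 (3.92), and Fgf7 was last with 0.0525. Neighbours in that order overlapped in their libraries except for Fgfr3 (0.201) and Fgf7. In embryonic LPS stroma Fgf7 stood eighth with 0.417 CPM per kb, and Hgf was last with 0.135. In adult PBS stroma, Fgf18 (25.0), Fgfr1 (18.2) and Fgf7 (10.8) came first and overlapped from each to the next, and Hgf (0.237) came last. In adult LPS stroma, Fgfr1 (26.5), Fgf18 (18.3) and Fgf7 (17.7) came first, and Fgf7 did not overlap with the next gene, Met (5.10). The length-scaled level of Fgf18 is uncertain. Its RefSeq gene extends to 33116970, past the GENCODE end at 33117430, and the GENCODE exons used here hold only 1187 bases. The order of Fgf18 and Fgfr1 can therefore depend on the annotation used for length. The length-scaled level of Fgf2 is also uncertain. Nudt6, which lies across its end on the opposite strand of chromosome 3 from 37404982, had opposite-strand counts in every library at 1.25 to 1.63 times those of Fgf2.

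**Figure D3:**
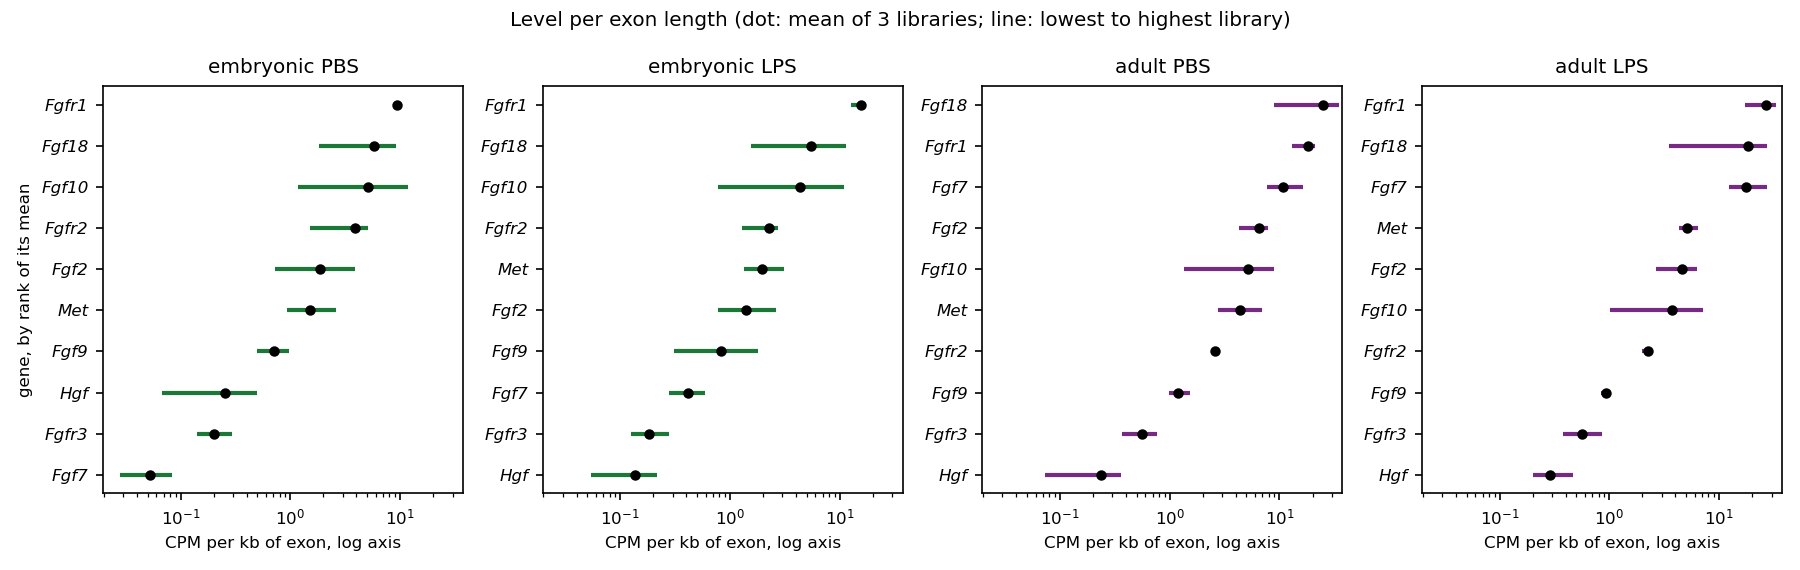
Level of each gene in CPM per kb of exon (log axis) in each of the 4 groups, ranked by the mean (dot) with a line from the lowest to the highest of 3 libraries. Fgf7 is last in embryonic PBS with 0.0525 and is the gene with rank 3 in both adult groups with 10.8 and 17.7, while Fgfr1 is first or next to first in every group.

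Within a stage, much of the spread of these genes lay between cultures, and these cultures also differed in markers of other cells. Both libraries of embryonic culture 2 were above those of embryonic cultures 1 and 3 in Fgf2, Fgf9, Fgf10, Fgfr3 and Met, with ratios of the means of 3.95, 2.99, 8.35, 1.97 and 2.42, and below them in Fgfr2 (0.358). The summed level of 7 mesothelial markers, led by Upk1b in embryonic and Upk3b in adult libraries, was 681 to 775 CPM in that culture and 148 to 159 CPM in the other embryonic libraries. The summed level of 7 fibroblast markers, led by Col1a1, was 11237 to 12309 CPM in that culture against 21091 to 26763 CPM. Both libraries of adult culture 2 were above the other adult libraries in Fgf10 and Met (3.09 and 1.78) and below them in Fgf2, Fgf18, Fgfr1 and Hgf (0.530, 0.211, 0.588 and 0.422). Hgf was barely below with LPS (1.45 against 1.47 CPM in adult LPS replicate 1), and the PBS library of adult culture 2 held 11 counts of it. The summed level of 8 endothelial markers, led by Emcn in adult libraries, was 1756 to 1824 CPM in that culture, 368 to 394 CPM in adult culture 3 and 16.2 to 21.4 CPM in adult culture 1, against 16.8 to 37.8 CPM in embryonic libraries, where 1 of the 8 had no count with LPS. Not all 8 markers shared this. Cdh5 did, at 247 and 278 CPM in adult culture 2 and at most 82.1 CPM in the other adult libraries. Kdr, which led the sum in embryonic libraries, did not, at 13.7 and 7.35 CPM against 6.74 to 16.8 CPM. Among LPS libraries, Kdr was higher in embryonic than in adult stroma (log2 fold change 1.51, adjusted p = 0.0312, edgeR). Cdh5 was lower in embryonic stroma (−9.17, adjusted p = 0.0484, edgeR). The fibroblast sum of adult culture 2 was 10960 to 11509 CPM against 19555 to 20345 CPM. Not all of its markers shared this. Pdgfra was highest in adult culture 2, at 78.5 and 121 CPM against 28.5 to 55.2 CPM in the other adult libraries. Macrophage markers (9 of 10 genes listed) summed to 108 to 1693 CPM in embryonic and 6.30 to 81.8 CPM in adult libraries, so they differed between the stages in the direction opposite to Fgf7. Mesothelial markers summed to 457 to 529 CPM in adult culture 2 and to 660 to 1470 CPM in the other adult libraries. Adult culture 2 was thus the lowest adult culture in this sum, where embryonic culture 2 was the highest of its stage. Not all mesothelial markers shared the low adult level. Lrrn4 was at 96.9 and 62.9 CPM in adult culture 2 against 25.4 to 94.8 CPM in the other adult libraries. The part of these cells in the differences between cultures and stages was not tested. For Fgf7, the number 2 library lay between the other libraries of its group in embryonic PBS, adult PBS and adult LPS stroma. In embryonic LPS stroma it was the lowest, at 0.898 CPM against 1.26 and 1.90 CPM.

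**Figure D4:**
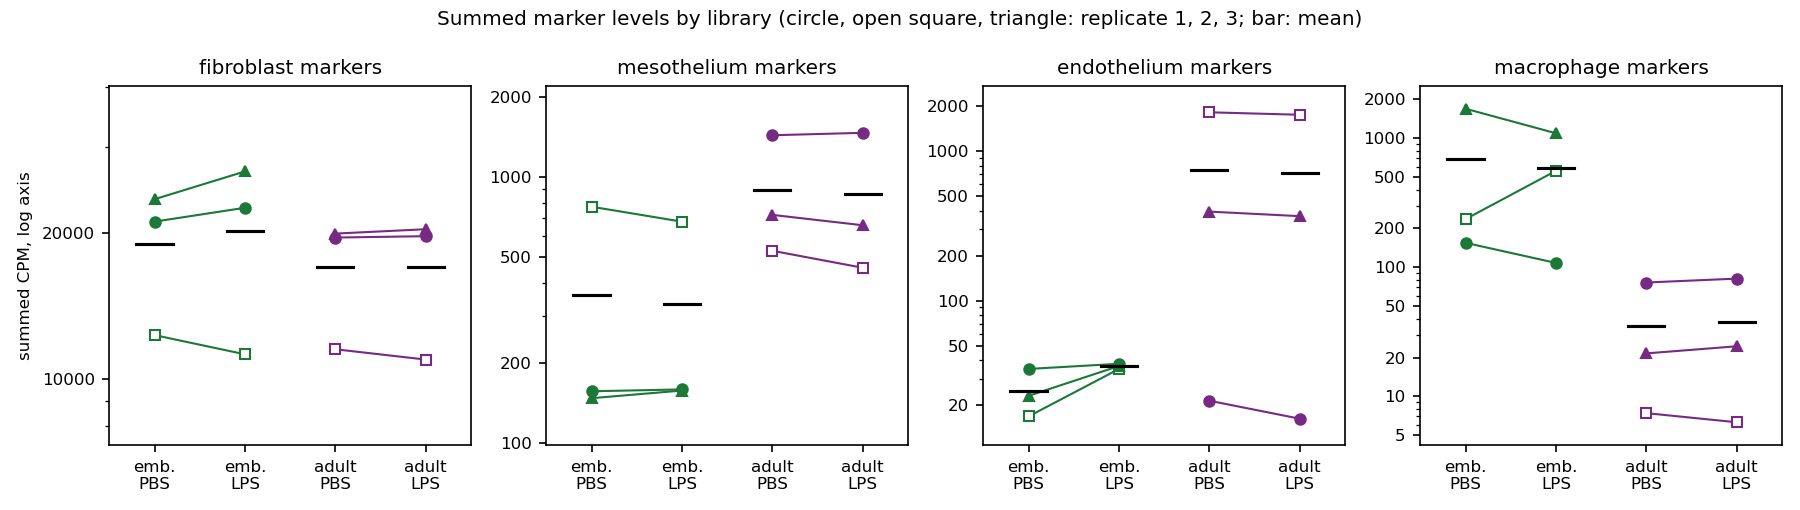
Summed CPM (log axis) of the fibroblast, mesothelial, endothelial and macrophage markers in each library, with lines joining the LPS and PBS libraries of the same replicate number and bars at the group means. The culture numbered 2 has the lowest fibroblast sum in both stages, the highest mesothelial sum in embryonic stroma (681 to 775) and the highest endothelial sum in adult stroma (1756 to 1824).

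The other genes of both pathways were described from 7 lists with 77 genes, of which 52 were tested. Without the block LPS changed 0 of the 52 in either stage, and with it 7 rose in each stage and 0 fell. In embryonic stroma 7 of 52 is near the 12.5% of all tested genes called with the block, and in adult stroma the share of all tested genes was 6.2%. At an unadjusted p under 0.05 there were 5 in each stage without the block, against 10.8% of all tested genes in embryonic and 5.58% in adult stroma. DESeq2 called 0 in embryonic stroma (5.25% of all tested genes) and 2 in adult stroma (2.25%). With the block, the adult count was 1 without adult culture 1 or 3, 3 without adult culture 2 and 12 without embryonic culture 3, and the embryonic count was 3 without embryonic or adult culture 3. The share of all tested genes was 2.04%, 1.77%, 3.45% and 9.46% in these adult fits, in this order. It was 7.98% and 8.23% in these embryonic fits. The median log2 fold change of the 52 genes with the block was 0.15 in embryonic and −0.002 in adult stroma. Between the stages 1 of the 52 was called in PBS libraries and 4 in LPS libraries, against 4.08% and 5.31% of all tested genes. Without embryonic culture 2 there were 9 in each, while the share of all tested genes rose to 9.75% and 10.4%. The count in LPS libraries was 0 without embryonic culture 1, adult culture 1 or adult culture 3 and 1 without embryonic culture 3 or adult culture 2, and that in PBS libraries was 2 without embryonic culture 3 or adult culture 2. In these fits the share of all tested genes lay between 0.267% and 4.37% in LPS libraries. In PBS libraries it was 3.87% and 2.45%.

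Of the other FGF ligands, only Fgf1, which binds all FGF receptors, was tested out of 13 listed, and it was higher in adult stroma like Fgf7. Fgf1 was at 0.271, 1.65 and 0.329 CPM in embryonic PBS, 1.12, 2.11 and 1.86 CPM in embryonic LPS, 13.7 to 44.1 CPM in adult PBS and 15.2, 27.6 and 9.12 CPM in adult LPS libraries. Its log2 fold change between the stages was −5.00 with PBS (standard error 0.82, adjusted p = 0.0115, edgeR) and −3.35 with LPS (standard error 0.76, adjusted p = 0.0342). Of the other receptors and membrane partners, 4 of 7 were tested and 1 was called, Flrt2, an FGF receptor partner, which rose in adult stroma with the block (0.64, standard error 0.12, adjusted p = 0.0247). Of 10 tested genes that FGF signaling through ERK is known to induce, such as the Sprouty, Spred and Etv families, 0 were called in any of the 5 comparisons with edgeR, with or without the block, and 0 with DESeq2, with at most 1 at an unadjusted p under 0.05 without the block and at most 3 with it. The 3 were in embryonic LPS against PBS, where 27.0% of all tested genes had an unadjusted p under 0.05 with the block. Without the block this share was 2.25% to 22.0% over the 5 comparisons. Dusp6, an ERK phosphatase of that list chosen after its values were seen, was at 120 to 141 CPM in embryonic culture 2 and at 19.0 to 46.4 CPM in embryonic cultures 1 and 3. Other such genes did not all share this. Spry2 and Etv5 were also higher in embryonic culture 2 than in the other embryonic libraries. Spry4 (15.6 and 21.1 against 9.12 to 27.5 CPM) and Etv4 (17.7 and 22.2 against 12.7 to 25.3 CPM) lay within their range, and Etv1 was lowest in that culture (0.449 and 0.457 CPM). Of 10 receptor adaptors, Shc1 was called, and it was lower in embryonic LPS than in adult LPS stroma (−0.35, standard error 0.08, adjusted p = 0.0389).

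Heparan sulfate carriers and enzymes set how FGFs and HGF are held at the cell surface, and 19 of 20 were tested. With the block LPS raised Sdc4, a membrane heparan sulfate proteoglycan, in embryonic (log2 fold change 2.20, standard error 0.32, adjusted p = 0.0038, edgeR) and adult stroma (1.59, standard error 0.31, adjusted p = 0.0238). Sdc4 went from 53.5, 231 and 47.1 CPM to 181, 661 and 495 CPM in embryonic and from 442, 155 and 277 CPM to 1408, 425 and 864 CPM in adult cultures. The sulfotransferases Ndst2 (0.57, adjusted p = 0.0095) and Hs6st1 (0.53, adjusted p = 0.0215) also rose in embryonic stroma, and the proteoglycan Gpc1 (0.64, adjusted p = 0.0196) in adult stroma. Between the stages, Gpc3, an embryonic glypican (3.49, standard error 0.85, adjusted p = 0.0449), and the sulfatase Sulf2 (0.84, standard error 0.19, adjusted p = 0.0347) were higher in embryonic LPS than in adult LPS libraries. Gpc3 was 38.1 and 46.8 CPM in embryonic culture 2 against 297 to 343 CPM in embryonic cultures 1 and 3.

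Of the proteases that can cut the HGF precursor and of their inhibitors, 7 of 13 were tested. The plasminogen activators rose with LPS in both stages with the block. Plau rose by 1.14 on the log2 scale in embryonic (standard error 0.27, adjusted p = 0.0296, edgeR) and 1.88 in adult stroma (standard error 0.28, adjusted p = 0.00662), and Plat by 0.84 (standard error 0.20, adjusted p = 0.0308) and 1.56 (standard error 0.20, adjusted p = 0.00363). Plau reached 129 to 200 CPM in embryonic and 128 to 664 CPM in adult LPS libraries, from 64.0 to 89.0 CPM and 65.2 to 119 CPM with PBS. Spint2, an inhibitor of such proteases, rose as well, by 0.36 (adjusted p = 0.0324) and 0.40 (adjusted p = 0.0382). Mst1r, the relative of Met that binds macrophage-stimulating protein, rose by 1.03 in embryonic (standard error 0.20, adjusted p = 0.014) and 0.76 in adult stroma (standard error 0.18, adjusted p = 0.0453), from 1.84 to 6.65 CPM with PBS to 4.73 to 9.67 CPM with LPS in embryonic libraries. None of the 52 genes was called in the interaction of stage and LPS by edgeR or by DESeq2. With edgeR, 1 had an unadjusted p under 0.05 without the block and 8 with it, against 2.25% and 8.92% of all tested genes. With the block, 2 were called without embryonic culture 2, against 1.24% of all tested genes.

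Over the 12 libraries, the genes whose log2 CPM was most like that of each of the 10 were found by Pearson's correlation, as a description over libraries that share stage, culture and treatment. Fgf7 was most like Socs2 (r = 0.979) and Pnp2 (0.977). Fgf2 was most like Rspo1 (0.981) and Sorbs3 (0.974), Fgf9 like Nek7 (0.945) and Yipf2 (0.935), Fgf10 like Irx3 (0.937) and Tmem9b (0.923), and Fgf18 like Pink1 (0.967) and Hcfc1r1 (0.965). Among the receptors, Fgfr1 was most like Ubtd2 (0.960) and Oaf (0.948), Fgfr2 like Kdm4b (0.956) and Nfatc4 (0.952), Fgfr3 like Cdh23 (0.975) and Tmem38b (0.974), and Met like Bmp6 (0.981) and Entpd2 (0.970). Hgf had the weakest likeness, with Il6ra (0.874) and Ttc7 (0.865).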

How the data were processed

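Stranded mRNAseq libraries were made from embryonic and adult intestinal stromal cells treated with LPS or PBS. Per the paper's methods and the submitters' processing notes, the authors trimmed reads, mapped them with STAR to mm10 (GRCm38.p6), allowed 1 mismatch at most and dropped reads with several positions. They deposited raw counts per gene, with 1 table per library and no normalization. Counts on the strand given by the library chemistry were used, since the opposite strand held 1.14% to 1.98% of gene counts.

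The counts were fitted with edgeR 4.0.16 in R 4.3.3 (TMM, genes with a CPM above 0.5 in all libraries of a group, quasi-likelihood test, 4 groups in 1 model of 12 libraries) and tested over 13038 genes with Benjamini-Hochberg adjustment; genes were called at an adjusted p under 0.05. The standard error is the absolute log2 fold change divided by the square root of F. Log2 CPM used a prior count of 2. Groups and replicate numbers came from the labels. The 10 genes and the lists were chosen with earlier results of these data known. The text names all 10 genes, up to 3 called genes with the largest change per list and comparison (from the fit with the block where the other called none), and the 2 genes most like each; markers are named only where most abundant, defining or at 0. Within a stage, equal numbers were taken as pairs because the deviations of both libraries from their group means correlated across genes in each pair (0.710 to 0.784 in embryonic and 0.610 to 0.850 in adult stroma); this pairing is inferred, as neither the labels nor the paper state it. Alternatives were DESeq2 1.42.0, its size factors, no filter, counts of either strand, a fold threshold of 2 on the log2 scale, blocks, each pair of groups alone and each library left out; leaving out a culture and the fits of 1 stage with the block were added after the data were seen. The scripts were tested on simulated data. Matched promoters came from RefSeq. Without the block, p-values measure the spread between the libraries of a group, and the LPS and PBS libraries of a culture are treated as independent. With the block within a stage, they measure the spread of the LPS effect between the inferred pairs.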

Additional observations from a re-analysis of the deposited data

Results flagged for a closer look

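The LPS response of Fgf7 differed between the stages by 2.25 on the log2 scale (embryonic minus adult, edgeR with the replicate block, adjusted p = 0.00749), and each embryonic culture had a larger ratio (5.89 to 14.0) than any adult culture (1.60 to 1.66). Without the block the adjusted p was 1.0.

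On the strand opposite to the gene, which the comparisons did not use, Fgf10 held 5.05% of its counts of both strands (2.73% to 6.59% by library), against 1.14% to 1.98% of all gene counts of a library. Nudt6, whose gene overlaps the end of Fgf2 on the other strand, held 95.1% of its counts on its opposite strand (75.7% to 98.1% by library, 186 to 2228 counts).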

How the results depend on the processing

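Of 1244 log2 fold changes of single genes recomputed under the alternatives, 1108 kept their direction and side of the threshold. Of the others, 14 lost and 36 gained a call, and 86 changed sign, none of the 86 for Fgf7. Counts of called genes were not among these values, and several moved by more than 1.5 times. For LPS in embryonic stroma, 358 of all tested genes were called without the block and 1636 with it. Fgf7 was called between the stages in every alternative tried. The cause of the other changes was not tested. With 3 cultures a group and Hgf, Fgfr3 and embryonic Fgf7 near the lower end of the counts, small differences of these genes could not be seen.

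With the replicate block within a stage, 3 of the 10 genes and 7 of the 52 pathway genes were called in embryonic stroma, 2 and 7 in adult stroma, and 1 of the 10 in the interaction. In the 6 libraries of a stage alone, 0 of the 10 were called in embryonic stroma and 1 pathway gene in adult stroma. These fits called 0.0317% of all genes tested there in embryonic and 1.81% in adult stroma. With the block they called 2 and 4 in embryonic and 4 and 13 in adult stroma, against 5.63% and 14.4% of all genes tested there. DESeq2 called 2 pathway genes with LPS in adult stroma, and between the stages 5 of the 10 and 7 pathway genes in PBS and 3 and 9 in LPS libraries. Across the stages replicate numbers did not pair (correlations from −0.306 to −0.002), and a block across stages called 3 of the 10 and 4 pathway genes in PBS and 4 of the 10 in LPS libraries. That block called 6.83% of all tested genes in PBS and 8.12% in LPS libraries. The 6 libraries alone called 0 pathway genes between the stages in PBS and 0 in LPS libraries, against 1.36% and 0.546% of all genes tested there. The fold threshold left 2 pathway genes in LPS libraries.

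The sign changed for Fgf9 in embryonic LPS against PBS with the replicate block (−0.10, and −0.16 in the 6 libraries alone), and with the block across stages for Hgf in PBS libraries (−0.17), Fgf10 in LPS libraries (−0.239) and Fgfr2 in LPS libraries (−0.078).

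Without 1 library or culture, counts for LPS in embryonic stroma ran from 0 to 1 for the 10 genes and from 0 to 1 for the pathway genes, and in adult stroma from 0 to 1 for the pathway genes. The share of all tested genes called ran from 0.726% to 3.59% in embryonic and from 0.0151% to 1.39% in adult stroma. Between the stages the counts ran from 1 to 5 for the 10 genes in PBS and from 1 to 5 in LPS libraries, and for pathway genes from 1 to 9 and from 0 to 9. The share of all tested genes ran from 0.634% to 9.75% in PBS and from 0.267% to 10.4% in LPS libraries. With the block, leaving out a culture gave 3 to 7 pathway genes in embryonic stroma, 0 to 4 of the 10 and 1 to 12 pathway genes in adult stroma, and 0 to 1 of the 10 and 0 to 2 pathway genes in the interaction. The share of all tested genes was then 7.98% to 15.0% in embryonic stroma, 1.77% to 9.46% in adult stroma and 0.26% to 1.24% in the interaction.

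Log2 fold changes whose sign depended on 1 library or culture, without the block, were in embryonic LPS against PBS Fgf2 (−1.215 to 0.745), Fgf9 (−1.04 to 0.62), Fgf10 (−2.26 to 1.39), Fgf18 (−1.175 to 0.64), Fgfr3 (−0.57 to 0.25), Hgf (−1.585 to 0.021) and Met (−0.13 to 1.02). In adult LPS against PBS they were Fgf10 (−1.35 to 0.22), Fgf18 (−0.87 to 0.031), Fgfr3 (−0.47 to 0.28), Hgf (−0.23 to 0.71) and Met (−0.039 to 0.71). In the interaction they were Fgf2 (−0.69 to 1.27), Fgf9 (−0.70 to 0.96), Fgf10 (−1.79 to 1.86), Fgf18 (−0.72 to 1.10), Fgfr1 (−0.027 to 0.39), Fgfr3 (−0.56 to 0.34) and Met (−0.34 to 0.81). Between the stages they were Fgf10 (−1.63 to 0.66) and Hgf (−0.85 to 0.55) in PBS and Fgf9 (−1.44 to 0.22), Fgf10 (−1.81 to 1.11) and Fgfr2 (−0.175 to 0.29) in LPS libraries.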
